A study of Mus musculus with 82 samples.

Results

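Lgr4, Lgr5, Lgr6, Prom1, Tspan8, Procr, Aldh1a1, Aldh1a3, Cd24a and Cd44 are 10 genes whose products have been used to mark or sort stem and progenitor cells of the mammary gland and its tumours. They were taken by name from a table of 47480 mouse genes, and all 10 were among the 22847 genes that passed a filter on low counts and were tested. RNA was sequenced from 82 mammary tumours, none of them treated, of 13 mouse tumour models. On the BALB/c strain there were 64 libraries, of the models T12 (n = 3), 4T1 (n = 5), 2208 (n = 12), 2250 (n = 11), 2153 (n = 7), 2224 (n = 4), 2336 (n = 5), 9263 (n = 7) and 2225 (n = 10). On FVB there were 15, of MMTV-NEU (n = 8), MMTV-PYMT (n = 5) and KPB1-A (n = 2), and the 3 of E0771 were on C57BL/6, so strain and model cannot be told apart for the FVB and C57BL/6 models. The labels give model and strain but no genotype, age or passage, and the series title names basal-like and claudin-low tumours without saying which model is which. As background, MMTV-NEU and MMTV-PYMT are named for transgenes under the mouse mammary tumour virus promoter, which acts mainly in mammary epithelium, and 4T1 and E0771 are transplantable lines that came from spontaneous mammary tumours. The labels call the libraries biological replicates without saying whether those of a model come from separate animals, so p-values measure the spread among libraries, which may be technical.

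Levels are in CPM, counts scaled to a common library total and for library composition, and the ± beside a level is the SD over the libraries of a model. Each model was set against the unweighted mean of the log2 means of the other 12 in edgeR, the ± beside a log2 difference is its SE, and adjusted p-values are Benjamini-Hochberg values over all tested genes, with calls under 0.05. Total counts per library lay between 14444938 and 132712507 with a median of 58193845, and 81 of the 82 libraries correlated best with their own model over all tested genes. MMTV-PYMT replicate 5 correlated best with MMTV-NEU (r = 0.97), and the same number of the 10 genes, 6, passed in MMTV-PYMT with and without it. The tissue label was set against epithelial markers: Epcam averaged 0.660 ± 0.413 CPM in T12 and 0.948 ± 0.809 CPM in E0771, against 366 to 1613 CPM in the other 11 models, so the defining epithelial markers were close to 0 in those 2 models. All 7 epithelial markers were lower there, although the keratin gene Krt8 still averaged 287 CPM in T12 and 374 CPM in E0771. In bulk tumour RNA, fewer cells of a type and less RNA per cell cannot be told apart.

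Lgr4, Lgr5 and Lgr6 are G protein-coupled receptors for R-spondins. An R-spondin bound to such a receptor draws off the membrane ubiquitin ligases Rnf43 and Znrf3, which otherwise remove Frizzled receptors, and so raises the response of a cell to Wnt ligands. Lgr5 marks stem cells of the intestinal crypt and, in the mammary gland, a fraction of basal cells, and Tspan8, a tetraspanin, has been used with it to subdivide mammary stem cells. Prom1 (CD133) is a pentaspan protein of membrane protrusions that is found on luminal mammary cells in the mouse. Procr, the endothelial receptor of protein C, marks a multipotent mammary stem cell population and is also expressed by endothelial and blood-forming cells. Aldh1a1 and Aldh1a3 oxidise retinaldehyde to retinoic acid and carry much of the aldehyde dehydrogenase activity that is used to sort tumour stem-like cells. Cd24a, a small lipid-anchored glycoprotein, and Cd44, a receptor for hyaluronan, are read together as a sorting pair.

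Promoter windows of 4 members are shown, because Lgr4, Lgr6 and Prom1 had their lowest means in E0771 and T12 and Procr had its highest mean in E0771. Of the 10 genes, 7 matched an entry in the RefSeq promoter table (Lgr4, Lgr6, Prom1, Tspan8, Procr, Aldh1a1 and Cd44), which uses build GRCm38.p6, the assembly of mm10. The windows are 300 bases long across a gene start annotated by RefSeq and are written 5′ to 3′ on the strand of the gene: chr2:109917397-109917696 (plus strand) for Lgr4, chr1:135105227-135105526 (minus strand) for Lgr6, chr5:44101687-44101986 (minus strand) for the first of the 2 windows of Prom1 and chr2:155750967-155751266 (plus strand) for Procr. Capitals mark matches, on either strand, to the E-box CAGGTG (or CACCTG), to the TCF/LEF core CTTTGAT (or ATCAAAG) and to the GC box GGGCGG (or CCGCCC), which do not overlap in these windows.
Lgr4: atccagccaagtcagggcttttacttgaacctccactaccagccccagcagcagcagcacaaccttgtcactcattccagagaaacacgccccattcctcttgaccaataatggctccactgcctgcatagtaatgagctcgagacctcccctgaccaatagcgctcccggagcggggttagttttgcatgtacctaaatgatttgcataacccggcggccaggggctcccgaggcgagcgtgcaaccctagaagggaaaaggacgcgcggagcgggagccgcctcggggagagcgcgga
Lgr6: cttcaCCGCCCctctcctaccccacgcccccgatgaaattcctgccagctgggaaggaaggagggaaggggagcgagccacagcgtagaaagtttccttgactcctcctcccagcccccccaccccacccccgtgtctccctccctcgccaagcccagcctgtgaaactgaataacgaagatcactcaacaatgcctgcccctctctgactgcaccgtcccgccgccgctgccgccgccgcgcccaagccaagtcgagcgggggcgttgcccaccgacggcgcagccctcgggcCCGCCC
Prom1: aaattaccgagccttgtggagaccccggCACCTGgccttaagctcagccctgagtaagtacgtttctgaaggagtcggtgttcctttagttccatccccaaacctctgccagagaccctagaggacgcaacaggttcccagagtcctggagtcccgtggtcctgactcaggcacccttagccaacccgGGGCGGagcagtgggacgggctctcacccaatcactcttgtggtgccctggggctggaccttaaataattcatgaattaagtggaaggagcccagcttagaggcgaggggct
Procr: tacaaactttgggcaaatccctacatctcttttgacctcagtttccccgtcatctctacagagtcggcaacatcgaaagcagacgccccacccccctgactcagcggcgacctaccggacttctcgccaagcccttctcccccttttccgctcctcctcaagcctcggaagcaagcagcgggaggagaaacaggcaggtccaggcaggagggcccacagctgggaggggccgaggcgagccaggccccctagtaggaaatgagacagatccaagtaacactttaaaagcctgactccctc
The Lgr6 window held 2 GC boxes and the Prom1 window 1 E-box and 1 GC box, whereas the Lgr4 and Procr windows held no match to the 3 motifs. Among 32851 promoters of the same length, 20.2% held the E-box, 3.73% the TCF/LEF core and 35.7% the GC box. Of the members not shown, both Aldh1a1 windows held 1 E-box each, Cd44 held 1 GC box, and Tspan8 and the second Prom1 window held none. The G and C content was 58.3% for Lgr4, 67.7% for Lgr6, 57% for Prom1 and 58.3% for Procr, with 18, 24, 10 and 13 CpG dinucleotides in that order. The Prom1 window lies inside the longer extent that GENCODE gives the gene and does not span the start of that extent.

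All 10 genes are annotated as protein-coding, and on mm10 they are spread over 6 chromosomes. Lgr4 lies at chr2:109917647-110014257 (plus strand), Lgr5 at chr10:115450311-115587780 (minus strand) and Lgr6 at chr1:134983301-135105276 (minus strand). Prom1 lies at chr5:43993620-44102032 (minus strand), Tspan8 at chr10:115816832-115849893 (plus strand) and Procr at chr2:155751117-155755471 (plus strand). Aldh1a1 lies at chr19:20492715-20643465 (plus strand) and Aldh1a3 at chr7:66390890-66427517 (minus strand), Cd24a at chr10:43578284-43584265 (plus strand) and Cd44 at chr2:102811141-102901665 (minus strand).

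Every one of the 10 genes had a wider range of model means than the median gene. All 10 passed the F test among models, as did 98.2% of all tested genes, so that count says little about these genes. The share of the variance of log2 CPM that lay between models ran from 70.96% for Procr to 97.8% for Cd24a, against a median of 75.3% over all tested genes. The log2 distance between the highest and the lowest model mean ran from 3.16 for Cd44 to 10.44 for Lgr6, against a median of 2.64 over all tested genes. Within a model the SD of log2 CPM ran from 0.28 for Cd24a to 1.11 for Aldh1a1, against a median of 0.50, so Aldh1a1 and Lgr5 (1.07) were also among the members that varied most between libraries of 1 model. In Cd24a a narrow spread within models went with a wide range between them. The members did not share 1 pattern: the model with the highest mean was 9263 for Lgr4 and Lgr6, KPB1-A for Lgr5 and Aldh1a1, and a different model for each of the other 6 genes.

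**Figure D1:**
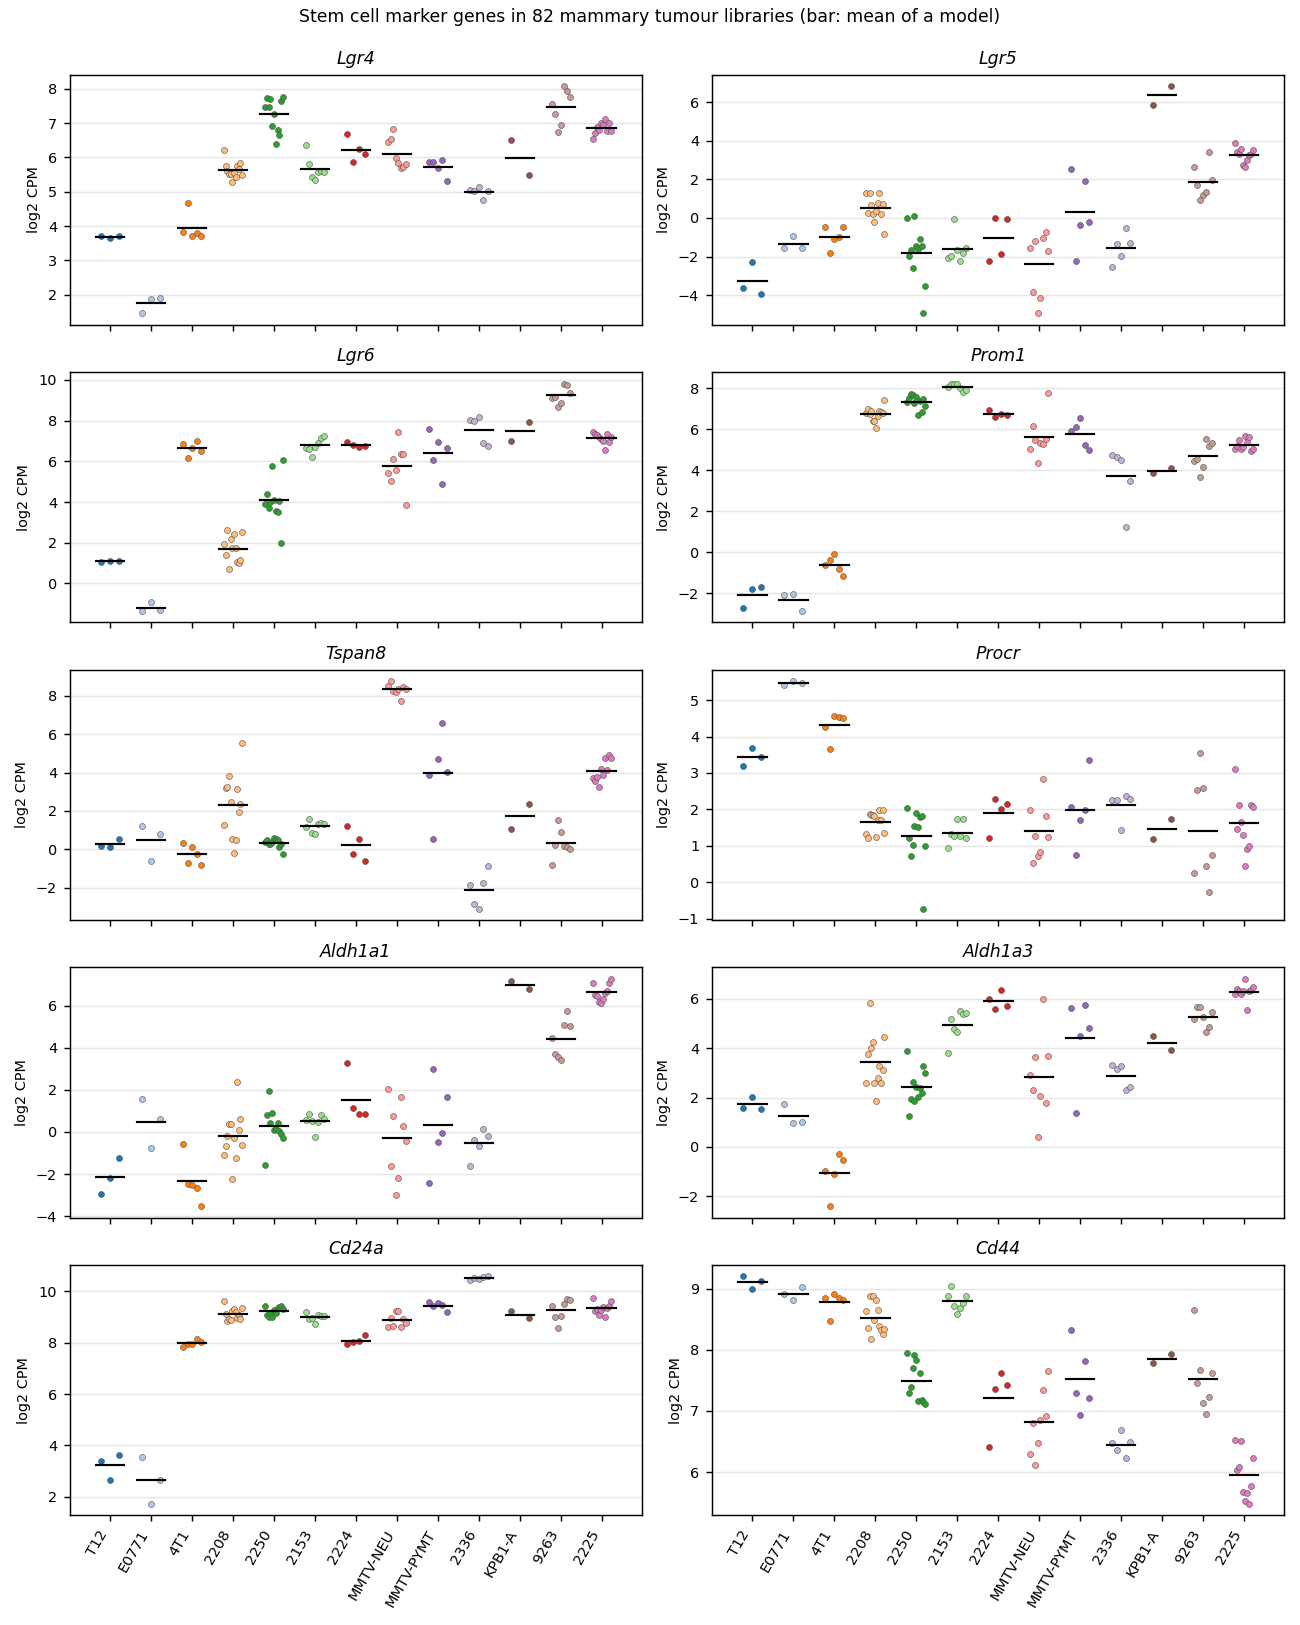
Log2 CPM (vertical axes, prior count of 2) of the 10 genes in each of the 82 libraries, by tumour model (horizontal axis); points are libraries and bars are means of a model. Lgr4, Lgr6, Prom1 and Cd24a sit low in T12 and E0771, Procr sits high in E0771, 4T1 and T12, and Tspan8 sits high in MMTV-NEU.

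Of the 130 combinations of a gene and a model, 56 were higher than the mean of the other 12 models, 45 were lower and 29 did not pass. T12 stood farthest to the low side. In T12 2 of the 10 genes were higher and 8 lower, where 24.4% of all tested genes were higher and 23.8% lower, and the median log2 difference of the 10 genes was -2.95. Leaving out a T12 library left 8 or 9 of the 10 passing. In E0771 2 of the 10 genes were higher and 6 lower (background 29.4% and 26.9%), with a median of -2.05, and 7 passed without any 1 of its libraries. In 4T1 3 of the 10 genes were higher and 5 lower (background 25.5% and 23.6%), with a median of -1.38. Over all tested genes the median difference lay between -0.11 in E0771 and 0.06 in KPB1-A.

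At the other end stood 2225, where 8 of the 10 genes were higher and 2 lower (background 34.2% and 26.8%) with a median of 1.65, and 9263, where 7 of the 10 genes were higher and 1 lower (background 32.5% and 21.9%) with a median of 1.53. In MMTV-PYMT 6 of the 10 genes were higher and 0 lower (background 31% and 20.5%), and in KPB1-A 5 of the 10 genes were higher and 0 lower (background 24.9% and 14.4%). These 4 models had the 4 highest medians. The other models were mixed. In MMTV-NEU 5 of the 10 genes were higher and 4 lower (background 34% and 28.4%), in 2153 5 of the 10 genes were higher and 2 lower (background 29.4% and 23.6%), and in 2208 4 of the 10 genes were higher and 3 lower (background 29.4% and 24.7%). In 2224 4 of the 10 genes were higher and 2 lower (background 24% and 14.8%), in 2250 3 of the 10 genes were higher and 7 lower (background 32.1% and 27.7%), and in 2336 2 of the 10 genes were higher and 5 lower (background 30.2% and 25.4%). T12 and E0771, far down for several genes, are part of the mean that the other models were set against. With the reference mean taken without these 2 models, 5 in place of 9 of the 10 genes passed in MMTV-NEU, and the log2 difference of Cd24a in 2153 was -0.11 in place of 0.91. In KPB1-A Lgr4 (0.06) and Cd24a (-0.0049) then no longer passed, nor in MMTV-PYMT did Lgr5 (0.75) and Lgr6 (0.23). The calls of a higher Prom1 (-0.05) and a lower Procr (-0.22) in 2225 were lost as well, as was that of a higher Prom1 in 9263 (-0.53). Calls in 2208 also thinned, to 4 in place of 7, when only libraries numbered 3000 or above in their titles were used. That setting leaves out most 2208 libraries and removes T12 from the reference mean. It therefore cannot separate library number from fewer libraries and a changed reference.

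**Figure D2:**
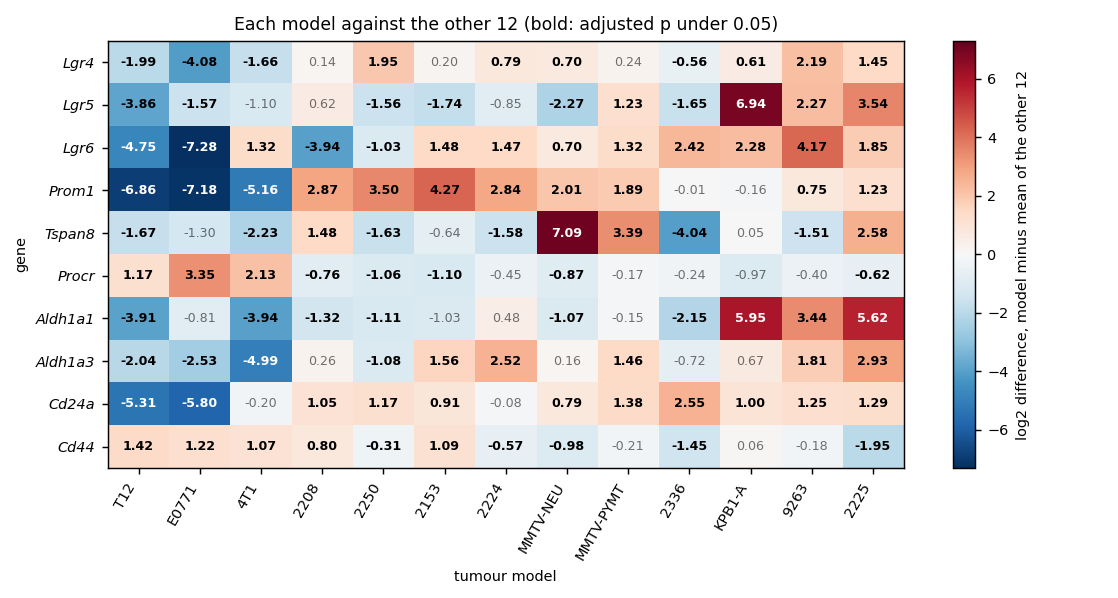
Log2 difference of each model (columns) from the mean of the other 12, for each of the 10 genes (rows); red is higher, blue is lower, and bold values have an adjusted p under 0.05. The deepest blue cells are Lgr6 and Prom1 in E0771 (-7.28 and -7.18) and Prom1 in T12 (-6.86), and the deepest red cells are Tspan8 in MMTV-NEU (7.09) and Lgr5 in KPB1-A (6.94).

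Lgr4, the most widely expressed of the 3 R-spondin receptors in adult tissues, was present in every model, with at least 10 CPM on average in 12 of 13. It was highest in 9263 and lowest in E0771. The 7 libraries of 9263 had a lowest value of 107, a median of 188 and a highest value of 271 CPM, and the 3 of E0771 had 2.72, 3.63 and 3.74 CPM. No E0771 library came near any 9263 library. In order below 9263 (187 ± 61.97 CPM) came 2250 at 160.3 ± 49.02, 2225 at 117 ± 13.4, 2224 at 76.2 ± 19.2, MMTV-NEU at 71.7 ± 23.05 and KPB1-A at 68.02 ± 32.8. Next came MMTV-PYMT at 53.7 ± 8.62, 2153 at 52.3 ± 13.8, 2208 at 50.3 ± 8.94 and 2336 at 32.2 ± 2.98. The lowest were 4T1 at 15.9 ± 5.27, T12 at 12.8 ± 0.329 and E0771 at 3.36 ± 0.563. Of the 13 models only E0771 averaged under 10 CPM. Lgr4 was higher in 9263 than in the other models (2.19 ± 0.12, adjusted p = 1.51e-27) and lower in E0771 (-4.08 ± 0.30, adjusted p = 2.58e-20). It was also lower in T12 (-1.99 ± 0.25, adjusted p = 2.44e-10), whose libraries had 12.99, 12.47 and 13.1 CPM, and in 4T1 (-1.66 ± 0.19, adjusted p = 9.8e-12), whose libraries had 14.1, 25.3, 13.01, 13.95 and 13.2 CPM. Neighbours in this order are pairs picked by their rank, and over all tested genes 8.49% of such pairs passed and 6.18% did not overlap in their libraries. For Lgr4 5 of 12 passed. The pairs that passed were 2250 over 2225 (0.46 ± 0.15, adjusted p = 0.00724), 2225 over 2224 (0.61 ± 0.21, adjusted p = 0.0144), 2208 over 2336 (0.64 ± 0.19, adjusted p = 0.00322), 2336 over 4T1 (1.01 ± 0.22, adjusted p = 7.41e-05) and T12 over E0771 (1.93 ± 0.30, adjusted p = 1.94e-07). The first 2 of these pairs overlapped in their libraries and the last 3 did not. In KPB1-A the 2 libraries had 91.2 and 44.8 CPM, and the log2 difference there, which passed (0.61 ± 0.24, adjusted p = 0.0311), was 0.01 without the first of them and 0.06 with the reference mean without T12 and E0771.

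Lgr5 was low in most models: only KPB1-A averaged 10 CPM or more, and 5 models averaged 1 CPM or more. The 2 KPB1-A libraries had 58.7 and 115 CPM. In 2225 the 10 libraries had a lowest value of 6.14, a median of 9.95 and a highest value of 14.5 CPM, and in 9263 the 7 libraries had a lowest value of 1.88, a median of 3.28 and a highest value of 10.5 CPM. Both KPB1-A libraries lay above every library of 2225, and 2225 and 9263 overlapped. MMTV-PYMT was split, with 5.79, 0.179, 0.731, 3.71 and 0.826 CPM in its 5 libraries, and its call was lost without replicate 1 or replicate 4. The 12 libraries of 2208 had a lowest value of 0.539, a median of 1.42 and a highest value of 2.42 CPM. The model means were 86.8 ± 39.7 CPM in KPB1-A, 9.88 ± 2.49 CPM in 2225, 4.35 ± 3.06 CPM in 9263, 2.25 ± 2.41 CPM in MMTV-PYMT and 1.51 ± 0.626 CPM in 2208. The other 8 models lay under 1 CPM, with 2224 at 0.584 ± 0.432, 4T1 at 0.504 ± 0.184, 2250 at 0.373 ± 0.338 and E0771 at 0.372 ± 0.107, then 2336 at 0.353 ± 0.198, 2153 at 0.338 ± 0.261, MMTV-NEU at 0.259 ± 0.218 and T12 at 0.0856 ± 0.0789. Few reads stand behind these low levels: in T12 the libraries had 0.0480, 0.176 and 0.0325 CPM, from 3 to 14 counts each. Lgr5 was higher in KPB1-A (6.94 ± 0.37, adjusted p = 3.36e-27), in 2225 (3.54 ± 0.29, adjusted p = 7.07e-18) and in 9263 (2.27 ± 0.33, adjusted p = 1.35e-08), and lower in T12 (-3.86 ± 0.86, adjusted p = 0.000109), where the difference was -4.90 without replicate 2. The call of a lower level in E0771 was lost without any 1 of its 3 libraries. Among neighbours KPB1-A over 2225 (3.14 ± 0.63, adjusted p = 3.18e-05) and 2225 over 9263 (1.18 ± 0.50, adjusted p = 0.0418) passed, and no pair further down did. Lgr5 overlaps the gene A930009A15Rik on the other strand, and the strand of counting is not given in the sources used here.

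Lgr6, which marks stem cells of the hair follicle and a progenitor population of the mammary gland in the mouse, showed the widest range of the 10 genes. The 9263 libraries had a lowest value of 407, a median of 565 and a highest value of 907 CPM, against 0.359, 0.496 and 0.373 CPM in E0771 and 2.04, 2.13 and 2.10 CPM in T12. All 7 libraries of 9263 lay above every library of every other model. Below 9263 (630.5 ± 188 CPM) came 2336 at 205 ± 84.7, KPB1-A at 187 ± 84.2, 2225 at 143 ± 23.1 and 2153 at 113 ± 26.4. Then came 2224 at 112 ± 9.30, MMTV-PYMT at 102 ± 60.1, 4T1 at 101 ± 21.3 and MMTV-NEU at 68.5 ± 48.7, and at the bottom 2250 at 22.5 ± 19.5, 2208 at 3.54 ± 1.57, T12 at 2.09 ± 0.0449 and E0771 at 0.409 ± 0.0752. Lgr6 was higher in 9263 (4.17 ± 0.22, adjusted p = 5.03e-28) and lower in E0771 (-7.28 ± 0.71, adjusted p = 1.63e-14), T12 (-4.75 ± 0.60, adjusted p = 2.67e-10) and 2208 (-3.94 ± 0.29, adjusted p = 7.02e-20). The pairs 9263 over 2336 (1.62 ± 0.42, adjusted p = 0.000666), MMTV-NEU over 2250 (1.60 ± 0.31, adjusted p = 7.73e-06), 2250 over 2208 (2.68 ± 0.30, adjusted p = 4.02e-12) and T12 over E0771 (2.34 ± 0.65, adjusted p = 0.00234) passed, and the libraries of the first and the last of these pairs did not overlap. The 7 steps from 2336 down to MMTV-NEU did not pass. Set beside Lgr4, Lgr6 differed in direction in 4T1, where Lgr6 was higher than in the other models (1.32 ± 0.28, adjusted p = 4.34e-05, but 0.23 with an adjusted p of 0.58 with the reference mean without T12 and E0771) and Lgr4 lower, and in 2208 and 2250, where Lgr6 was lower and Lgr4 was not, although the difference between the 2 genes was not tested. In MMTV-NEU the call of a higher Lgr6 (0.70) turned to -0.40 with the reference mean without T12 and E0771.

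The ligands of these receptors each peaked in 1 or 2 models and were low in the rest, and Rspo1 stayed low in all. Rspo3 averaged 208 ± 36.1 CPM in 2336 (9.19 ± 0.53, adjusted p = 5.97e-26), against at most 2.002 CPM in any other model. Rspo4 averaged 51.3 ± 12.6 CPM in 2225 and 12.7 ± 10.03 CPM in 9263, against at most 0.138 CPM elsewhere. Rspo2 averaged 2.18 ± 0.312 CPM in T12 and at most 0.0184 CPM elsewhere, and Rspo1 averaged at most 2.92 CPM, in 2336. The ubiquitin ligase gene Rnf43, itself a Wnt target, averaged 156 ± 39.5 CPM in 9263 (3.16 ± 0.09, adjusted p = 2.09e-44), against 0.450 CPM in T12 and 0.559 CPM in E0771, whereas its relative Znrf3 stayed between 16.8 CPM in T12 and 58.5 CPM in 2225. The Wnt feedback gene Nkd1 averaged 320.1 ± 60.6 CPM in 2225 and 109 ± 46.8 CPM in 9263, and Axin2 124 ± 19.7 CPM in 9263, 58.9 ± 8.07 CPM in 2225 and 54.4 ± 25.5 CPM in 2336. The Wnt effector gene Tcf7 averaged 190.1 ± 26.9 CPM in 9263 and 1.95 ± 1.63 CPM in MMTV-NEU. Of the 17 partner genes tested, 11 were higher and 3 lower in 2225 (median log2 difference 1.29, 0.02 over all genes), 11 and 2 in 2336 (median 1.23), and 9 and 2 in 9263 (median 0.90). In T12 2 were higher and 12 lower (median -1.43), and in E0771 0 and 9 (median -2.42). KPB1-A, with the highest Lgr5, had 4 of the 17 partners higher and 1 lower, where 24.9% of all tested genes were higher and 14.4% lower. Its 4 R-spondin genes averaged at most 0.988 CPM. The shares over all tested genes given above for each model are the background for all list counts.

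**Figure D3:**
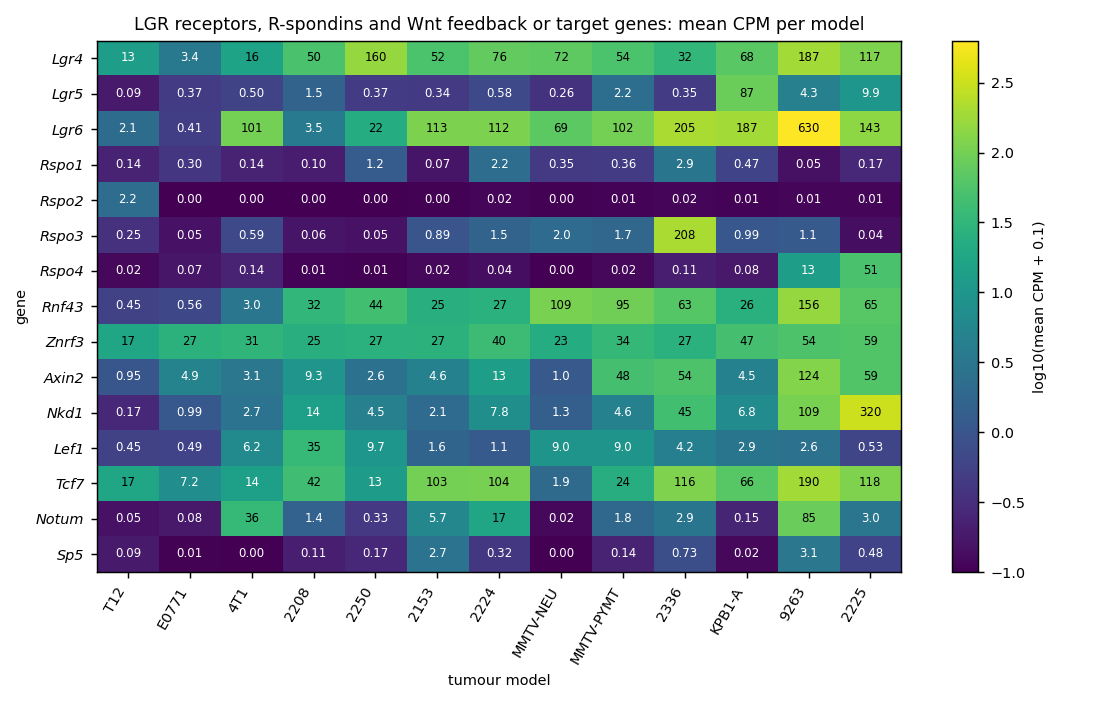
Mean CPM per model (columns) of the 3 R-spondin receptors, the 4 R-spondins, the ligases Rnf43 and Znrf3 and Wnt feedback or target genes (rows); colour gives log10 of the mean CPM plus 0.1, and each cell prints the mean CPM. Rspo3 stands out in 2336 (208 CPM), Rspo4 in 2225 (51.3 CPM), Lgr5 in KPB1-A (86.8 CPM) and Lgr6 in 9263 (630.5 CPM), and Rnf43 is under 1 CPM in T12 and E0771.

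Prom1 split the models into 10 that averaged at least 10 CPM and 3 that averaged under 1 CPM. The 2153 libraries had a lowest value of 222, a median of 266 and a highest value of 299 CPM. The 4T1 libraries had 0.624, 0.730, 0.912, 0.533 and 0.414 CPM, the T12 libraries 0.120, 0.252 and 0.271 CPM and the E0771 libraries 0.205, 0.214 and 0.104 CPM. No library of these 3 models reached the lowest value of any other model, which was 2.33 CPM, in 2336. Below 2153 (268 ± 29.4 CPM) came 2250 at 163 ± 33.4, 2208 at 109 ± 26.1 and 2224 at 107 ± 11.01, then MMTV-NEU at 63.2 ± 62.3, MMTV-PYMT at 58.7 ± 25.5 and 2225 at 38.3 ± 7.22, then 9263 at 28.1 ± 12.4, 2336 at 17.4 ± 10.4 and KPB1-A at 15.7 ± 2.12. In MMTV-NEU replicate 8 had 213 CPM and the other 7 libraries between 20.4 and 70.0 CPM. Prom1 was higher in 2153 (4.27 ± 0.19, adjusted p = 2.07e-32) and lower in E0771 (-7.18 ± 0.62, adjusted p = 7.21e-17), T12 (-6.86 ± 0.60, adjusted p = 1.87e-16) and 4T1 (-5.16 ± 0.41, adjusted p = 2.73e-18). The neighbours KPB1-A over 4T1 (4.61 ± 0.47, adjusted p = 3.29e-13) and 4T1 over T12 (1.57 ± 0.54, adjusted p = 0.0177) passed without overlap, as did 2153 over 2250 (0.71 ± 0.27, adjusted p = 0.0205), and 2250 over 2208 (0.58 ± 0.24, adjusted p = 0.0327) passed with overlap. Of the 7 epithelial markers 4 were higher and 0 lower in 4T1, with Epcam at 366 ± 114 CPM, and their part in the Prom1 result was not tested. The paralog Prom2 was likewise near 0 in T12 (0.0360 CPM) and E0771 (0.450 CPM) but averaged 55.4 ± 19.96 CPM in 4T1 (1.89 ± 0.24, adjusted p = 1.88e-10), and it was highest in MMTV-NEU (163 ± 56.9 CPM) and 2336 (142 ± 4.07 CPM). The calls of a higher Prom1 in 2225 (1.23) and 9263 (0.75) turned to -0.05 and -0.53 with the reference mean without T12 and E0771. Prom1 overlaps the antisense gene Gm16401, whose mean was at most 1.25 CPM, in 2224. It also overlaps Gm42716, a processed transcript on the same strand, whose level is not given here.

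Tspan8 was high in MMTV-NEU and low in most other models. The 8 MMTV-NEU libraries had a lowest value of 209, a median of 325 and a highest value of 432 CPM, and the lowest of them lay above every library of the other 12 models. The 5 MMTV-PYMT libraries had 14.6, 1.44, 26.4, 94.8 and 16.4 CPM and so spread widely. In 2336 the libraries had 0.240, 0.105, 0.0855, 0.260 and 0.516 CPM. Below MMTV-NEU (327 ± 64.5 CPM) came MMTV-PYMT at 30.7 ± 36.9, 2225 at 18.2 ± 7.16 and 2208 at 8.98 ± 12.4, in which 2208 ran from 0.850 to 46.2 CPM, and then KPB1-A at 3.61 ± 2.20, 2153 at 2.31 ± 0.439, E0771 at 1.53 ± 0.834 and 9263 at 1.36 ± 0.751. The lowest were 2224 at 1.30 ± 0.764, 2250 at 1.23 ± 0.187, T12 at 1.201 ± 0.208, 4T1 at 0.842 ± 0.297 and 2336 at 0.241 ± 0.172. Tspan8 was higher in MMTV-NEU (7.09 ± 0.32, adjusted p = 9.05e-32) and MMTV-PYMT (3.39 ± 0.32, adjusted p = 2.79e-15, or 2.33 without replicate 4) and lower in 2336 (-4.04 ± 0.64, adjusted p = 1.09e-07). The neighbours MMTV-NEU over MMTV-PYMT (3.41 ± 0.59, adjusted p = 4.76e-06), 2225 over 2208 (1.01 ± 0.38, adjusted p = 0.0175) and 4T1 over 2336 (1.67 ± 0.69, adjusted p = 0.0327) passed, and the second of these pairs overlapped. The calls of a lower Tspan8 in T12 and 2224 were each lost in some leave-one-out fits, without any 1 of the 3 T12 libraries and without 2224 replicate 2 or 4. Among BALB/c models alone, a setting without MMTV-NEU and MMTV-PYMT in the reference mean, further calls were lost. Tspan8 then no longer passed as lower in 2224 (-0.56), 2250 (-0.63), 9263 (-0.50) and T12 (-0.63). KPB1-A, the third FVB model, had 2.06 and 5.17 CPM. Tspan8 lies 229 kb from Lgr5 on chromosome 10, with 1 non-coding gene, Gm8960, between them, and it overlaps the antisense gene 4930422I22Rik. The 2 neighbouring genes did not share their high models: MMTV-NEU, highest for Tspan8, averaged 0.259 ± 0.218 CPM of Lgr5.

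Tetraspanins of the wider family shared the high models of Tspan8 only in part. Tspan1 averaged 68.7 ± 26.7 CPM in 2250, 43.5 ± 54.1 CPM in MMTV-PYMT and 42.5 ± 84.2 CPM in MMTV-NEU, and Cd81 averaged 766 ± 81.3 CPM in MMTV-NEU, its highest model, and 45.02 ± 9.29 CPM in E0771, its lowest. Cd63, a tetraspanin of endosomes, was highest in T12 (664 ± 35.05 CPM). Of the 11 partners of Procr, Tspan8 and Prom1, 7 were higher and 2 lower in MMTV-NEU (median log2 difference 0.93), and 3 were higher and 6 lower in T12 (median -0.47).

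Procr was highest in the 3 models where Lgr4 and Prom1 were lowest. Its libraries had 42.5, 45.9 and 44.1 CPM in E0771, 19.3, 12.7, 23.7, 23.2 and 22.7 CPM in 4T1 and 9.18, 12.9 and 10.9 CPM in T12. The highest library of any other model had 11.7 CPM, in 9263. The means were 44.1 ± 1.70 CPM in E0771, 20.3 ± 4.61 CPM in 4T1 and 10.98 ± 1.85 CPM in T12. Every E0771 library lay above every other library, and T12 overlapped with 9263 and MMTV-PYMT at their upper ends. The other 10 models lay close together, from 4.64 ± 3.27 CPM in MMTV-PYMT through 2336 at 4.43 ± 0.992, 9263 at 4.05 ± 4.02, 2224 at 3.88 ± 1.12 and 2225 at 3.48 ± 2.11 to 2208 at 3.19 ± 0.617, MMTV-NEU at 2.997 ± 1.88, KPB1-A at 2.77 ± 0.778, 2250 at 2.62 ± 1.05 and 2153 at 2.56 ± 0.529. Procr was higher in E0771 (3.35 ± 0.29, adjusted p = 5.17e-17), 4T1 (2.13 ± 0.26, adjusted p = 1.15e-10) and T12 (1.17 ± 0.36, adjusted p = 0.00504), and lower in 2153 (-1.10 ± 0.31, adjusted p = 0.0018), where the difference was -1.04 with an adjusted p of 0.109 among libraries numbered 3000 or above. The T12 call was lost without replicate 2 (1.04, adjusted p = 0.0544). T12 over MMTV-PYMT (1.24 ± 0.50, adjusted p = 0.0298) was the only pair of neighbours to pass; E0771 over 4T1 gave 1.12 ± 0.49, adjusted p = 0.0564.

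Genes of the coagulation pathway around Procr had their own orders. Pros1, which encodes the cofactor protein S, was highest in 2208 (456 CPM) and lowest in 2336 (18.2 CPM), and F3, which encodes tissue factor, was highest in MMTV-NEU (185 CPM) and lowest in 4T1 (8.31 CPM). The thrombin receptor gene F2r averaged 153 ± 24.4 CPM in 4T1, 123 ± 12.8 CPM in E0771 and 57.1 ± 11.4 CPM in T12, and the thrombin-binding Thbd averaged 47.2 ± 1.52 CPM in T12 but 7.79 ± 2.02 CPM in E0771 and 6.84 ± 2.15 CPM in 4T1. Leukocyte markers were also high in the 3 models. Of 10 leukocyte markers 7 were higher and 0 lower in T12, 7 and 2 in E0771 and 8 and 0 in 4T1. Their summed level was 984 to 1233 CPM in T12, 488 to 833 CPM in E0771 and 575 to 781 CPM in 4T1, against 37.5 to 447 CPM in the other 10 models. Of 8 endothelial markers 4 were higher and 1 lower in T12, 1 and 0 in E0771 and 5 and 0 in 4T1, and their summed level of 185 to 203 CPM in E0771 lay inside the 32.05 to 420.1 CPM of the other 10 models. The endothelial marker Pecam1 averaged 58.03 ± 3.59 CPM in E0771, 87.6 ± 15.3 CPM in 4T1 and 87.3 ± 35.2 CPM in T12, against 35.3 to 61.01 CPM in the others. Of the endothelial markers with the largest F, Vwf was highest in E0771 (17.1 CPM) and lowest in 2250 (1.99 CPM). Esam (24.7 CPM) and Cdh5 (99.6 CPM) were highest in T12, and Cldn5 in 2225 (22.5 CPM). None of these markers was at 0 in all libraries of a model, and their part in the Procr result was not tested.

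Aldh1a1 was high in the 3 models that were also highest for Lgr5. The KPB1-A libraries had 141 and 111 CPM, the 2225 libraries a lowest value of 69.5, a median of 93.6 and a highest value of 154 CPM and the 9263 libraries a lowest value of 10.5, a median of 22.3 and a highest value of 53.3 CPM. The means were 126 ± 21.3 CPM in KPB1-A, 102 ± 28.9 CPM in 2225 and 25.2 ± 15.6 CPM in 9263. KPB1-A and 2225 overlapped, and 2225 and 9263 did not. Of the other 10 models the highest mean was 3.86 ± 3.95 CPM in 2224, where replicate 1 had 9.78 CPM and the other 3 libraries between 1.76 and 2.13 CPM. The rest were MMTV-PYMT at 2.54 ± 3.14, E0771 at 1.68 ± 1.21, 2153 at 1.44 ± 0.312 and MMTV-NEU at 1.42 ± 1.47, then 2250 at 1.37 ± 0.916, 2208 at 1.18 ± 1.33, 2336 at 0.704 ± 0.284, T12 at 0.225 ± 0.150 and 4T1 at 0.221 ± 0.234. Aldh1a1 was higher in KPB1-A (5.95 ± 0.39, adjusted p = 7.49e-22), 2225 (5.62 ± 0.34, adjusted p = 9.28e-25) and 9263 (3.44 ± 0.33, adjusted p = 4.86e-15), and lower in 4T1 (-3.94 ± 0.69, adjusted p = 1.38e-06), whose libraries had 0.634, 0.148, 0.140, 0.127 and 0.0540 CPM and where the difference was -4.87 without replicate 1. The neighbours 2225 over 9263 (2.01 ± 0.54, adjusted p = 0.00119) and 9263 over 2224 (2.73 ± 0.73, adjusted p = 0.00137) passed, and KPB1-A over 2225 gave 0.31 ± 0.77, adjusted p = 0.789. Its closest paralog, Aldh1a7, was highest in 2225 (14.5 ± 4.49 CPM) and KPB1-A (8.13 ± 0.119 CPM), followed by MMTV-PYMT (3.51 ± 6.06 CPM) and 9263 (2.27 ± 0.746 CPM). The counts of these near-identical genes are estimates that divide shared reads, so that part of the Aldh1a7 value may be reads of Aldh1a1, and Aldh1a1 also overlaps 2 genes on the other strand.

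Aldh1a3 was spread over more models, with at least 10 CPM on average in 8, of which MMTV-NEU rests on replicate 6, at 63.4 CPM: the other 7 libraries had 1.29 to 12.7 CPM and averaged 6.61 CPM. The 2225 libraries had a lowest value of 46.1, a median of 80.1 and a highest value of 112 CPM and the 2224 libraries 63.5, 48.6, 81.3 and 52.7 CPM, against 0.480, 0.157, 0.433, 0.787 and 0.666 CPM in 4T1. All 4T1 libraries lay below every library of 2225 and 2224. Below 2225 (79.6 ± 16.3 CPM) came 2224 at 61.5 ± 14.6, 9263 at 39.1 ± 10.3, 2153 at 33.2 ± 11.5 and MMTV-PYMT at 31.1 ± 20.8, then KPB1-A at 18.9 ± 5.21, 2208 at 14.5 ± 14.5, MMTV-NEU at 13.7 ± 20.5 and 2336 at 7.73 ± 2.42, and last 2250 at 6.13 ± 3.57, T12 at 3.31 ± 0.665, E0771 at 2.42 ± 0.787 and 4T1 at 0.505 ± 0.241. Aldh1a3 was higher in 2225 (2.93 ± 0.26, adjusted p = 2.76e-16) and lower in 4T1 (-4.99 ± 0.63, adjusted p = 2.81e-10), and E0771 over 4T1 (2.26 ± 0.68, adjusted p = 0.00425) was the only pair of neighbours to pass. The 2 dehydrogenases shared 2225 and 9263 as models with a higher level and differed in 2224, 2153 and MMTV-PYMT, where Aldh1a3 passed as higher and Aldh1a1 did not pass, and in KPB1-A, where Aldh1a1 passed and Aldh1a3 (0.67 ± 0.60, adjusted p = 0.407) did not, and the difference between the 2 genes was not tested. A gene of the same step, Aldh1a2, averaged at most 4.84 ± 2.32 CPM, in 4T1, where the other 2 were lowest.

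Among other genes of retinoid metabolism the highest count of higher genes was in 2225, where 10 of 14 were higher and 2 lower (median log2 difference 0.97, 0.02 over all genes). Rdh10, the retinol dehydrogenase that makes retinaldehyde, averaged 214 ± 49.5 CPM in 2225 (2.26 ± 0.10, adjusted p = 1.66e-31) and 11.6 ± 0.369 CPM in E0771. Stra6, a retinol importer, averaged 168 ± 33.1 CPM in 2225 (3.45 ± 0.36, adjusted p = 1.75e-13). Cyp26a1, which degrades retinoic acid and is induced by it, averaged 5.42 ± 0.610 CPM in KPB1-A (4.22 ± 0.44, adjusted p = 6.36e-13) and 2.56 ± 1.08 CPM in 2225 (3.05 ± 0.29, adjusted p = 4.8e-15), its 2 highest models. Crabp2, a retinoic acid binding protein, was highest in MMTV-PYMT (132 ± 46.9 CPM), and Dhrs9 in 4T1 (18.01 ± 4.18 CPM). In T12 3 of 14 were higher and 7 lower (median -0.45), in E0771 3 and 7 (median -0.60), and in MMTV-NEU 3 and 8 (median -1.07).

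Cd24a was among the most model-bound genes measured, ranking 415 of 22847 by F. Its libraries had 1408, 1484, 1424, 1498 and 1534 CPM in 2336, against 10.4, 6.33 and 12.2 CPM in T12 and 11.6, 3.27 and 6.25 CPM in E0771. Every 2336 library lay above every library of the other models, and every T12 and E0771 library below all others, of which the lowest had 229.7 CPM. The means were 1469.6 ± 52.5 CPM in 2336, 9.65 ± 3.002 CPM in T12 and 7.04 ± 4.22 CPM in E0771. Between them stood MMTV-PYMT at 696 ± 70.4, 2225 at 657 ± 105, 9263 at 640.0 ± 169 and 2250 at 609 ± 65.8, then 2208 at 564 ± 93.7, KPB1-A at 547 ± 73.5, 2153 at 514 ± 52.4 and MMTV-NEU at 477 ± 89.8, and 2224 at 273 ± 29.6 and 4T1 at 253 ± 19.2. Cd24a was higher in 2336 (2.55 ± 0.10, adjusted p = 1.23e-35) and lower in E0771 (-5.80 ± 0.26, adjusted p = 6.18e-32) and T12 (-5.31 ± 0.25, adjusted p = 2.06e-30). The neighbours that passed were 2336 over MMTV-PYMT (1.08 ± 0.17, adjusted p = 2.12e-07), MMTV-NEU over 2224 (0.81 ± 0.17, adjusted p = 5.51e-05) and 4T1 over T12 (4.71 ± 0.25, adjusted p = 9.89e-27), and none of these 3 pairs overlapped. The 7 steps between MMTV-PYMT and MMTV-NEU did not pass. The calls of a higher Cd24a in 2153 (0.91), KPB1-A (1.0) and MMTV-NEU (0.79) turned to -0.11, -0.0049 and -0.22 with the reference mean without T12 and E0771. Those in 2208 (1.05) and 2250 (1.17) fell to 0.04 and 0.16 and no longer passed. The low level moved with the epithelial markers, whose summed level was 234 to 338 CPM in T12 and 364 to 396 CPM in E0771, against 751 to 7307 CPM in the other 11 models, and their part in the result was not tested. In 2336, where Cd24a was highest, 3 of 7 epithelial markers were higher and 2 lower, and 5 of 6 basal markers were higher.

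Cd44 had the narrowest range of the 10 genes and averaged at least 63.9 CPM in every model. Its libraries had 588, 509 and 558 CPM in T12, 483, 449.7 and 522 CPM in E0771 and 460.4, 357, 482, 463 and 451 CPM in 4T1. The 2225 libraries had a lowest value of 44.6, a median of 60.002 and a highest value of 92.2 CPM, and none reached the lowest of the T12, E0771 and 4T1 libraries. In order below T12 (552 ± 39.9 CPM) came E0771 at 485 ± 36.4, 2153 at 446 ± 47.6, 4T1 at 443 ± 49.5 and 2208 at 371 ± 64.7, then KPB1-A at 232 ± 16.9, 9263 at 199 ± 94.3, MMTV-PYMT at 195 ± 80.6 and 2250 at 183 ± 42.3, and last 2224 at 155 ± 48.4, MMTV-NEU at 119 ± 44.5, 2336 at 87.8 ± 10.2 and 2225 at 63.9 ± 17.6. Cd44 was higher in T12 (1.42 ± 0.19, adjusted p = 8.94e-10), E0771 (1.22 ± 0.19, adjusted p = 8.11e-08) and 2153 (1.09 ± 0.13, adjusted p = 1.03e-10), and lower in 2225 (-1.95 ± 0.15, adjusted p = 1.11e-19) and 2336 (-1.45 ± 0.20, adjusted p = 1.43e-09). It was also higher in 4T1 (1.07 ± 0.15, adjusted p = 1.11e-08) and 2208 (0.80 ± 0.11, adjusted p = 3.89e-09). Further lower calls were MMTV-NEU (-0.98 ± 0.15, adjusted p = 3.74e-08), 2224 (-0.57) and 2250 (-0.31). Those in 2224 and 2250 were lost with the reference mean without T12 and E0771. Of the 12 pairs of neighbours 2336 over 2225 (0.46 ± 0.20, adjusted p = 0.0492) passed, with overlapping libraries. Leukocytes also carry CD44, and the summed leukocyte markers were high in T12, E0771 and 4T1, as given beside Procr. In 2153, with 446 ± 47.6 CPM of Cd44, they ran from 126 to 447 CPM, the highest upper value among the other 10 models. Only 3 of the 10 leukocyte markers were higher in 2153 and 2 were lower (median log2 difference -0.06). The sum there includes S100a9 (82.3 CPM) and S100a8 (46.4 CPM), which both had their highest mean in 2153. Of 6 mesenchymal markers 5 were higher and 1 lower in T12, 5 and 1 in E0771, 4 and 1 in 4T1 and 2 and 3 in 2153. The part of the leukocyte and mesenchymal markers in the Cd44 result was not tested.

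Read as a pair, the 2 sorting markers separated T12 and E0771 from the rest. The log2 ratio of Cd44 to Cd24a was 6.28 ± 0.86 (SD) in E0771 and 5.88 ± 0.41 in T12. The lowest single library had 5.38 in E0771 and 5.51 in T12. In the other 11 models no library exceeded 1.003, a value reached in 4T1. Since the 2 transcripts differ in length, only differences between models are read from this ratio, not its sign. Below T12 stood 4T1 at 0.80 ± 0.19, 2153 at -0.20 ± 0.17, 2208 at -0.61 ± 0.32 and 2224 at -0.88 ± 0.46. Then came KPB1-A at -1.23 ± 0.30, 9263 at -1.74 ± 0.71, 2250 at -1.76 ± 0.38, MMTV-PYMT at -1.92 ± 0.51 and MMTV-NEU at -2.06 ± 0.59, and the lowest were 2225 at -3.39 ± 0.39 and 2336 at -4.07 ± 0.20. The 2 lowest models reached that place in different ways, 2336 with the highest Cd24a and 2225 with the lowest Cd44. Gene-level counts do not separate the splice forms of Cd44. Esrp1 and Esrp2, which encode splicing regulators that favour the inclusion of variable Cd44 exons in epithelial cells, averaged 0.129 ± 0.152 CPM and 0.134 ± 0.0507 CPM in T12 and 0.556 ± 0.910 CPM and 0.650 ± 0.671 CPM in E0771, against 52.7 to 335 and 22.3 to 126 CPM in the other 11 models. Msn, an actin linker of the CD44 tail, was highest in 4T1 (1590.1 ± 50.2 CPM) and T12 (1541 ± 29.4 CPM), and Has2, a hyaluronan synthase gene, averaged 186 ± 78.3 CPM in 9263, 167 ± 81.1 CPM in 2336 and 0.933 ± 0.311 CPM in E0771.

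**Figure D4:**
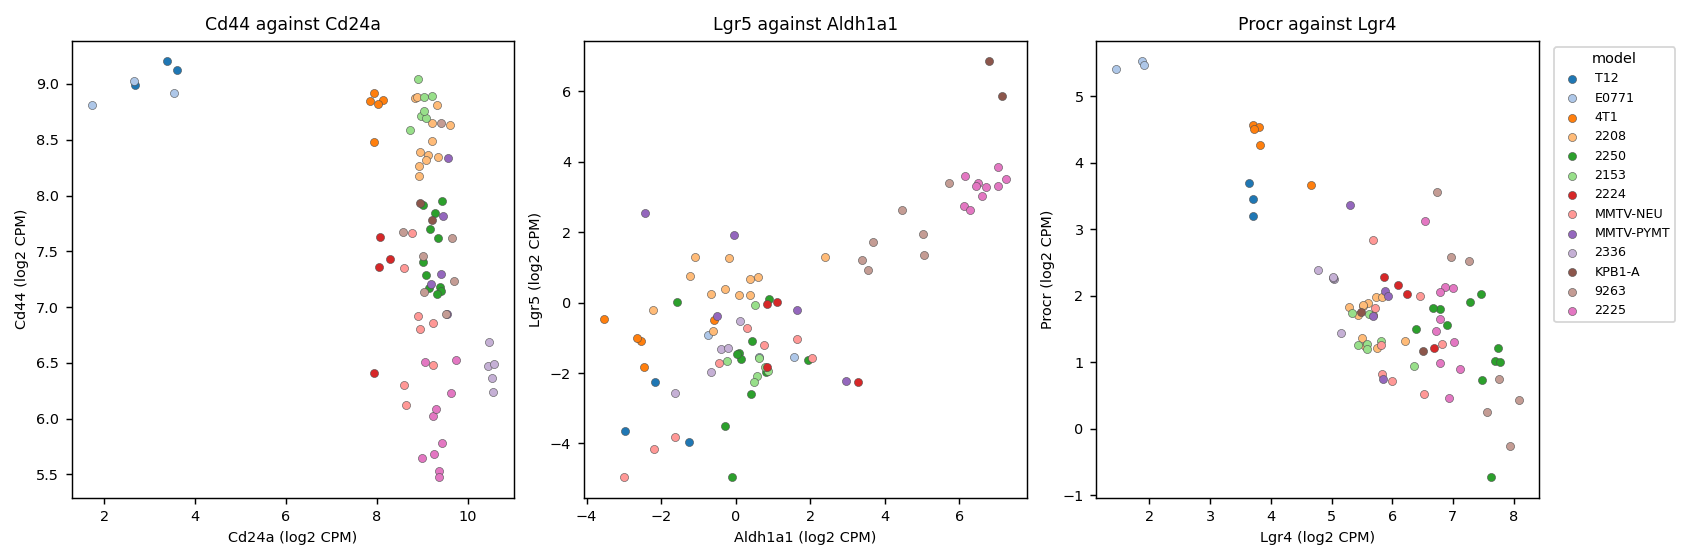
Log2 CPM of 3 pairs of genes in each library (points), coloured by tumour model: Cd44 against Cd24a, Lgr5 against Aldh1a1, and Procr against Lgr4. T12 and E0771 stand alone at low Cd24a, KPB1-A and 2225 share high Aldh1a1 and Lgr5, and E0771, 4T1 and T12 lie at low Lgr4 and high Procr.

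Across the 13 model means of log2 CPM, 45 pairs of the 10 genes were compared as a description, and all values share the same libraries. Lgr5 and Aldh1a1 gave the highest Pearson r, 0.89 (Spearman 0.63), and KPB1-A, 2225 and 9263 are high in both. Lgr4 and Prom1 gave 0.83 (0.58) and Prom1 and Cd24a 0.79 (0.32), where the low values of T12 and E0771 stand apart. Procr ran against Lgr4 (-0.92, Spearman -0.76) and Prom1 (-0.90, Spearman -0.74), and Cd44 against Cd24a (-0.63, Spearman -0.66). The neighbours Lgr5 and Tspan8 gave 0.11 (0.23). The 3 models highest for Lgr5 and Aldh1a1 were also among those with high basal markers, of which 4 of 6 were higher and 0 lower in KPB1-A, 5 and 1 in 2225 and 5 and 0 in 9263. However, 2336, with 5 higher and 0 lower, averaged 0.353 ± 0.198 CPM of Lgr5 and 0.704 ± 0.284 CPM of Aldh1a1. In 2224, with 6 higher and 0 lower, the means were 0.584 ± 0.432 CPM of Lgr5 and 3.86 ± 3.95 CPM of Aldh1a1. In MMTV-PYMT, with 5 higher and 1 lower, they were 2.25 ± 2.41 CPM and 2.54 ± 3.14 CPM.

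Among 13130 tested genes with a mean of at least 5 CPM in at least 1 model, those whose 13 model means correlated best with each member were the following. For Lgr4 they were Wtip (r = 0.94), Mal2 (r = 0.94) and Mzf1 (r = 0.93), for Lgr5 Hif3a (r = 0.93), Mchr1 (r = 0.92) and Glt1d1 (r = 0.91), and for Lgr6 Cand2 (r = 0.96), Nudt14 (r = 0.91) and Tiam1 (r = 0.90). For Prom1 they were Cited4 (r = 0.96), Atp6v1c2 (r = 0.96) and Cldn8 (r = 0.96), and for Tspan8 Cox7a1 (r = 0.90), Slc10a5 (r = 0.89) and Tmem147os (r = 0.87). Procr was followed most closely by Acsl6 (r = 0.98), Tigit (r = 0.95) and Timp2 (r = 0.93), of which Acsl6 averaged 46.2 CPM in E0771 and 0.0383 CPM in 2225. Aldh1a1 was followed by Tcp11 (r = 0.96), Mab21l3 (r = 0.94) and Mchr1 (r = 0.94), so that Mchr1, at 89.4 CPM in KPB1-A, was close to both Lgr5 and Aldh1a1. Aldh1a3 was followed by Krt79 (r = 0.87), Slc25a35 (r = 0.87) and Ovol1 (r = 0.87), and Cd44 by Slc9a5 (r = 0.90), Pla2g7 (r = 0.90) and Abl2 (r = 0.90). The closest to Cd24a were Ripk4 (r = 0.98), Rab25 (r = 0.97) and Arhgef16 (r = 0.97), and all 3 had their lowest mean in T12.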

How the data were processed

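RNA-seq libraries of 82 mammary tumours from 13 mouse models were compared. Per the submitters' processing notes, reads were handled with STAR, SAMtools, Picard and Salmon on mm10 (versions and the strand of counting are not given in the sources used here). The authors deposited estimated counts for 47480 genes (whole numbers in 85.5% of entries) and a second table of normalised signal for the same genes. Groups follow the model in the labels.

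The estimated counts were rounded to whole numbers, and 22847 genes passed edgeR's filter by model (minimum count 10, minimum total 15). TMM-scaled counts were fitted with 1 mean per model in edgeR's quasi-likelihood test (edgeR 4.0.16, limma 3.58.1, R 4.3.3) with 69 residual degrees of freedom before pooling over genes, and adjusted with Benjamini and Hochberg's method over all tested genes. The same fit gave the F test among models, each model against the mean of the other 12, and neighbouring models in the order of means. Log2 CPM uses a prior count of 2. The steps were tested on simulated data with known changes. Alternatives were other size factors, DESeq2 1.42.0, no filter, limma on the authors' normalised signal, BALB/c models only, a reference mean without T12 and E0771, library numbers from the titles, and single libraries left out. Total counts of 14444938 to 132712507 per library limit precision for genes under about 1 CPM.

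Promoter sequences are from RefSeq (GRCm38.p6). The 10 genes and the 13 gene lists were chosen with earlier results of these data known. Named were all 10 genes with their highest and lowest models, up to 4 genes per list with the largest F, the paralogs Aldh1a2, Aldh1a7 and Prom2, and the 3 best correlated genes per member. Rspo1, Rspo2, Rspo3, Znrf3, Axin2, Lef1, Notum, Sp5, Krt8, Tspan1, Cd63, F2r, Thbd, Pecam1, Stra6 and Cyp26a1 were added after their values were seen. One gene that this rule names is not reported here.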

Additional observations from a re-analysis of the deposited data

Results flagged for a closer look

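In 9 of 80 groups of 4 to 10 libraries, a group being 1 gene in 1 model, the highest or lowest library stood apart from the rest of its model by Dixon's gap criterion at the 95% level, where chance alone marks about 1 in 20 groups. The highest library stood apart for 4 of them. Lgr4 in 4T1 replicate 2 had 25.3 CPM, against 13.01 to 14.1 CPM in the other 4 libraries. Lgr5 in 2153 replicate 3 had 0.922 CPM, against 0.177 to 0.306 CPM in the other 6. Aldh1a1 in 2224 replicate 1 had 9.78 CPM, against 1.76 to 2.13 CPM in the other 3. Cd44 in 9263 replicate 1 had 402 CPM, against 123 to 204 CPM in the other 6.

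The lowest library stood apart for 5. Procr in 2336 replicate 3 had 2.68 CPM, against 4.72 to 5.17 CPM in the other 4 libraries. Aldh1a1 in 2153 replicate 4 had 0.823 CPM, against 1.37 to 1.79 CPM in the other 6. Aldh1a3 in 2225 replicate 7 had 46.1 CPM, against 72.1 to 112 CPM in the other 9. Aldh1a3 in MMTV-PYMT replicate 2 had 2.58 CPM, against 22.4 to 53.0 CPM in the other 4. Cd44 in 4T1 replicate 2 had 357 CPM, against 451 to 482 CPM in the other 4, so that 1 library of 4T1 stood apart for both Lgr4 and Cd44.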

How the results depend on the processing

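No paired analysis was possible because the labels carry no replicate numbers that models share. All 10 genes passed the F test among models under every alternative run. Of the 101 gene and model combinations that passed, all 101 kept direction and call with DESeq2 and with its size factors, 99 without a count filter, 99 with the library number class as a term and 96 with limma on the authors' table. Among BALB/c models alone 67 of 73 kept their call, and among libraries numbered 3000 or above 79 of 91, where T12 has no value. With the reference mean without T12 and E0771, 80 kept their call, 15 lost it, and 6 changed sign: Cd24a in 2153 (-0.11), KPB1-A (-0.0049) and MMTV-NEU (-0.22), Prom1 in 2225 (-0.046) and 9263 (-0.53) and Lgr6 in MMTV-NEU (-0.40). The 10 genes then had 5 calls in MMTV-NEU, against 9. Among libraries numbered 3000 or above, which leave out most of 2208, they had 4 calls in 2208, against 7. The cause of these changes was not tested. Leaving out single libraries in 27 fits, 7 combinations lost their call at least once, and calls per model ran from 5 to 6 in 2224, 7 in 2336, 8 in 4T1, 7 in E0771 (8 with all), 4 to 5 in KPB1-A, 5 to 6 in MMTV-PYMT and 8 to 9 in T12 (10 with all). In KPB1-A the 1 library left is taken to vary like the rest. Of 120 neighbouring pairs 26 passed, and 24 to 28 did under the settings that keep all 13 models, whereas 18 of 55 did among BALB/c models and 19 of 102 among libraries numbered 3000 or above. The ratio of Cd44 to Cd24a moved by less than its SD with the authors' table and with a prior count of 0.5. The library 2208 replicate 12 carries no number and was left out of both settings on library numbers. Depth limits Lgr5, Tspan8 and Aldh1a1 in models under about 1 CPM. It likewise limits Prom1 in 4T1, T12 (10 to 25 counts per library) and E0771 (7 to 16 counts). The same holds for Lgr6 in E0771 (21 to 37 counts) and Aldh1a3 in 4T1 (17 to 74 counts).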

Other observations

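Sox10, a transcription factor of neural crest and of mammary progenitor cells, set the same 3 models apart as Prom1. It averaged 445 to 1126 CPM in 10 models, against 0.324 ± 0.336 CPM in T12, 0.156 ± 0.0708 CPM in E0771 and 0.329 ± 0.465 CPM in 4T1. Id4, an inhibitor of helix-loop-helix factors that is needed by basal mammary cells in the mouse, averaged 611 ± 55.5 CPM in 2336, 451 ± 127 CPM in 2224 and 409 ± 79.6 CPM in 9263, against 0.248 ± 0.121 CPM in T12 and 0.577 ± 0.204 CPM in 2250. Snai2, a transcription factor of basal mammary cells, was highest in 9263 (65.6 ± 13.2 CPM) and lowest in E0771 (0.966 ± 0.209 CPM). Cd1d1, which presents lipid antigens and has been used as a mammary stem cell marker in the mouse, was highest in MMTV-NEU (43.2 ± 20.7 CPM). Of the 18 other mammary stem and basal progenitor markers 11 were higher and 6 lower in 2225 (median log2 difference 1.01), 10 were higher and 6 lower in 9263 (1.34), 9 were higher and 1 lower in KPB1-A (1.0) and 10 were higher and 2 lower in 2224 (0.96). At the low end 4 were higher and 12 lower in 2250 (-0.52), 6 were higher and 10 lower in 4T1 (-1.16) and 4 were higher and 9 lower in T12 (-0.88).

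Of the 7 luminal markers, 0 were higher and 6 lower in T12 and 0 were higher and 7 lower in E0771, and 6 were higher and 1 lower in MMTV-PYMT, with Elf5, a regulator of luminal progenitors, at 511 ± 200.5 CPM in MMTV-PYMT and 0.0288 ± 0.0259 CPM in T12. Of the 15 partners of CD44 and CD24, 7 were higher and 2 lower in 9263 and 5 were higher and 7 lower in 2250. The F test among models was passed by 14 of the 15, and by 98.2% of all tested genes. Of the 8 fibroblast markers, 6 were higher and 1 lower in 2208, 5 were higher and 0 lower in 4T1 and 0 were higher and 5 lower in MMTV-NEU, and Pdgfra averaged 170.4 ± 12.01 CPM in KPB1-A, 138 ± 15.5 CPM in 4T1 and 8.90 ± 5.33 CPM in 2336. Genes of muscle and fat spread widely between libraries of 1 model: Myh4, a myosin of fast muscle fibres, averaged 321 ± 292 CPM in E0771 and 165 ± 424 CPM in 2208 and was at 0 in all 3 T12 libraries. Of the 6 muscle and adipocyte markers, 6 were higher and 0 lower in MMTV-PYMT, 5 were higher and 0 lower in MMTV-NEU and 3 were higher and 0 lower in E0771.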
